A study of Mus musculus with 11 samples.

Results

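The 8 genes described here are Olig1, Olig2, Sox10, Nkx2-2, Pdgfra, Cspg4, Gpr17 and Bcan, which were chosen by name as genes of the oligodendrocyte lineage out of 48440 genes in the count table of the cultures. They were followed by genotype in 6 cultures of neural progenitor cells (NPCs) and by genotype and cell class in scRNA-seq of the cortex of 2 mouse embryos. Of the 8 genes, 7 had enough counts to be tested in the cultures, among 14432 genes tested in all, and Gpr17 had none.

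Oligodendrocytes make the myelin sheaths of the central nervous system and come from oligodendrocyte precursor cells (OPCs). The earliest OPCs of the forebrain arise ventrally, under Sonic hedgehog, in domains that switch on Olig2 and Olig1, and later ones come from the dorsal cortex. OPCs then depend on PDGF, read by the receptor Pdgfra, carry the proteoglycan Cspg4 (NG2) on their surface, and pass through a Gpr17-positive stage before they turn on the genes of myelin. Several of these genes are also used outside the lineage: Pdgfra marks fibroblasts, Cspg4 marks pericytes, and Bcan is made by radial glia and astrocytes.

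The study removed Syncrip, an RNA-binding protein also called hnRNP Q, from the developing cortex of C57BL/6 mice. The cKO carried Syncrip alleles with loxP sites around exons 2 to 4 and, in the cortex, Emx1-Cre, which acts in the dorsal telencephalic lineage and not in cells that entered from the ventral side. The 3 WT and 3 cKO cultures were NPCs from E14.5 brains, dissected from the walls of the lateral ventricles and grown with B27, EGF and bFGF. The study uses cKO for the Emx1-Cre cross, while the labels of the cultures say only cKO and do not say that each culture came from its own animal, so p-values below measure the spread between these cultures. The scRNA-seq libraries came from the dorsal cortex of 1 WT and 1 cKO embryo of the same litter at E14.5, so differences between the embryos have no test, and their intervals cover counting error only.

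The cultures held 16962903 to 22708400 counts each. The whole-gene count of Syncrip, 77.9, 79.8 and 79.9 CPM (counts scaled to the same library total) in the WT and 90.3, 88.7 and 81.5 CPM in the cKO cultures, did not differ in the edgeR quasi-likelihood test (adjusted p = 0.180), and in the embryos it had 287 CPM in the WT and 311 CPM in the cKO over all cells and 314 and 324 CPM in AP-like cells, the apical progenitor-like cells of the cortex. Counts over a whole gene do not check a deletion of exons 2 to 4. The paper states that it checked the knockout in RNA and protein, with RNA-seq tracks of cKO neurospheres lacking these exons. Y-linked genes gave 5903 to 9232 counts in WT 1, WT 2 and cKO 1 and at most 1 count in the other 3 cultures, so sex was not balanced between the genotypes. Among markers of other cells that a dissection could carry, the summed level ran from 2.17 to 3.30 CPM for endothelial cells, from 5.96 to 8.74 CPM for fibroblasts and from 0.390 to 2.27 CPM for microglia, and from 168 to 204 CPM for pericytes, most of it, as seen from the values, from Notch3 (126 to 176 CPM), which neural progenitors also express, while the pericyte marker Rgs5 was at 1.12 CPM or less. The astrocyte markers summed to 13221 to 16127 CPM in the WT and 8154.7 to 8671.3 CPM in the cKO cultures, and the 6 cell cycle markers to 147 to 194 CPM in the WT and 269 to 392 CPM in the cKO cultures. Markers of migrating neurons (331 to 344 CPM in the WT and 217 to 231 CPM in the cKO cultures, 5 of 6 tested lower), of GE neurons (114 to 119 and 77.2 to 80.2 CPM, 5 of 8 lower) and of GE progenitors (94.8 to 111 and 62.0 to 70.5 CPM, 3 of 6 lower) were lower as well, GE being the ganglionic eminence. The sums of immature neuron markers (148 to 177 CPM in the WT and 149 to 173 CPM in the cKO cultures) overlapped, with 2 of 7 tested higher and 3 lower. Those of apical progenitors overlapped too (6418.5 to 7697.7 and 6531.7 to 7435.5 CPM, 4 of 10 higher and 5 lower). So did those of intermediate progenitors (197.5 to 238 and 179 to 201 CPM, 2 of 5 higher and 2 lower). Of all genes tested, 19.7% were called higher and 19.8% lower. The part of the marker shifts in the values below was not tested.

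In the cultures, 4 of the 7 tested members were higher in the cKO, 0 were lower and 3 did not pass the test. The 4 were Olig1, Nkx2-2, Pdgfra and Bcan, and the rises were small, from 0.25 to 0.44 on the log2 scale. Over all genes tested, 19.7% were called higher, 19.8% lower and 39.5% in either direction, with a median log2 fold change of 0.002. In 4 of the 7 members the WT and cKO cultures did not overlap, which was also so for 50.4% of all genes tested. Called and without overlap were 38% of all genes tested. In bulk samples, fewer cells of a type and less RNA per cell cannot be told apart.

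Olig1 and Olig2 are neighbouring basic helix-loop-helix factors that specify the lineage. In mm10, Olig2 lies at chr16:91225550-91228677 on the plus strand with 2 exons, and Olig1 lies 41094 bases further along the same strand at chr16:91269772-91271933, as a gene of a single exon. Olig1 had 984, 1153 and 917 CPM in the WT and 1294, 1481 and 1377 CPM in the cKO cultures. Every cKO culture was above every WT culture, with means of 1018 ± 121 and 1384 ± 93.7 CPM (SD, n = 3 each). The log2 fold change was 0.44 (SE 0.10, edgeR adjusted p = 0.00302). Olig2 had 429, 538 and 437 CPM in the WT and 450, 559 and 522 CPM in the cKO cultures. Its groups overlapped, and the log2 fold change of 0.12 (SE 0.10) did not pass the edgeR test (adjusted p = 0.370). Within each culture, the ratio of Olig1 to Olig2 CPM was 2.29, 2.14 and 2.10 in the WT and 2.87, 2.65 and 2.64 in the cKO cultures. All 3 cKO ratios were above all 3 WT ratios, which in a 2-sided exact permutation test gives p = 0.1, the smallest value that 3 against 3 cultures allow.

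Sox10 and Nkx2-2 are the other transcription factors of the list. Sox10, which drives the myelin programme, had 99.7, 113 and 152 CPM in the WT and 79.0, 116 and 111 CPM in the cKO cultures (chr15:79154913-79164490, minus strand). It was the one member with a value below 0, a log2 fold change of -0.25 (SE 0.19, edgeR adjusted p = 0.327), and its groups overlapped. Nkx2-2, which marks cells on the way from precursor to oligodendrocyte, had 41.7, 40.3 and 31.1 CPM in the WT and 43.9, 50.8 and 47.3 CPM in the cKO cultures (chr2:147177546-147194243, minus strand). The groups did not overlap and the log2 fold change was 0.33 (SE 0.12, edgeR adjusted p = 0.0366). Of its span, 60.9% is shared with other annotated genes, among them its antisense gene, so its count is uncertain.

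The surface proteins of OPCs gave one small rise. Pdgfra, the receptor for PDGF-A, had 295, 267 and 276 CPM in the WT and 332, 334 and 330 CPM in the cKO cultures (chr5:75152292-75198215, plus strand). The cKO cultures lay close together and above all WT cultures, and the log2 fold change was 0.25 (SE 0.08, edgeR adjusted p = 0.0179). Cspg4, the NG2 proteoglycan, had 102, 137 and 119 CPM in the WT and 120, 144 and 136 CPM in the cKO cultures (chr9:56865104-56899870, plus strand). Its groups overlapped, and the log2 fold change of 0.16 (SE 0.10) did not pass the edgeR test (adjusted p = 0.224).

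Bcan, the secreted brain proteoglycan brevican, was the most abundant member in CPM. It had 1448, 1809 and 1596 CPM in the WT and 1909, 2118 and 1910 CPM in the cKO cultures (chr3:87987531-88000230, minus strand). The lowest cKO culture was above the highest WT culture, and the log2 fold change was 0.29 (SE 0.10, edgeR adjusted p = 0.0302). The ratio of Bcan to Ncan, which encodes the related proteoglycan neurocan, was 0.629, 0.705 and 0.729 in the WT and 0.599, 0.696 and 0.669 in the cKO cultures, and these overlapped (2-sided exact permutation p = 0.5).

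Gpr17, a receptor of precursors about to differentiate, had 0 counts in all 6 cultures. This cannot be read as a lack of Gpr17 RNA. The gene lies wholly inside the span of Lims2 on the opposite strand, and all 938 protein-coding genes of the table that lie wholly inside another gene were at 0 in every culture, against 2044 of 8552 (23.9%) of those that share no base of their span with another gene.

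**Figure D1:**
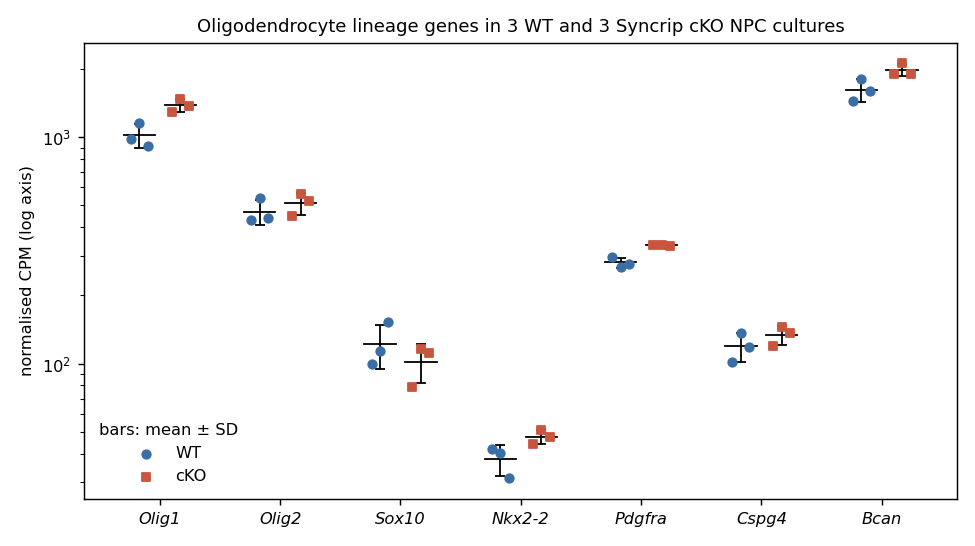
Level of the 7 tested members in each of the 3 WT and 3 cKO cultures, as normalised CPM on a log axis, where points are cultures and bars their mean with SD. The groups do not overlap for Olig1, Nkx2-2, Pdgfra and Bcan and overlap for Olig2, Sox10 and Cspg4.

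Not every call held when a culture was left out. Olig1 passed the test without any one culture and under every other setting. Pdgfra no longer passed without WT 2 or without any one cKO culture (edgeR adjusted p = 0.0659 to 0.0734), Nkx2-2 without WT 2, WT 3, cKO 2 or cKO 3 (0.0656 to 0.130), and Bcan without WT 1, WT 3 or any one cKO culture (0.0504 to 0.151). The number of members called higher was therefore 3 without WT 1, 2 without WT 2, WT 3 or cKO 1, and 1, Olig1, without cKO 2 or cKO 3. Calls over all genes fell as well, except without WT 1, where those higher rose to 3070 of 14764 tested. Those higher went from 2843 of 14432 tested to 2226 of 14775 without cKO 2 and 2068 of 14747 without cKO 3. Sox10 became a call, lower in the cKO, when sex was a term of the fit (log2 fold change -0.42, edgeR adjusted p = 0.000526). Split by sex, the log2 ratio of cKO over WT was 0.28 among the cultures with Y-linked counts and 0.64 among those without for Olig1, 0.24 and 0.27 for Pdgfra, 0.23 and 0.34 for Bcan, 0.10 and 0.66 for Nkx2-2 and -0.43 and -0.42 for Sox10. Olig2 was at -0.10 and 0.31, with the cKO culture with Y-linked counts inside the range of its 2 WT cultures, and Cspg4 was at 0.01 and 0.24. Each of these splits sets 1 culture against 2, with no test.

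Per kilobase of annotated exon, the members fell into a wide order of levels in the WT cultures. Olig1 (471 ± 56.2 CPM per kb; SD, n = 3) and Bcan (398 ± 44.6 CPM per kb) led, and their difference within the same cultures was not tested. In the cKO cultures Olig1 had 640 ± 43.3 and Bcan 487 ± 29.6 CPM per kb. In the WT cultures Olig2 followed with 185 ± 24.1, then Sox10 with 39.8 ± 8.88, Pdgfra with 27.9 ± 1.42, Nkx2-2 with 13.1 ± 2.00 and Cspg4 with 10.0 ± 1.47 CPM per kb. The order was the same in the cKO cultures, where Sox10 (33.4 ± 6.58 CPM per kb) and Pdgfra (33.1 ± 0.176 CPM per kb) could not be told apart.

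Other genes of the lineage were mostly lower in the cKO cultures. Of 28 further oligodendrocyte lineage genes, 27 were tested: 2 were higher, 21 lower and 4 did not pass, with a median log2 fold change of -0.67, and in 22 of the 27 the groups did not overlap. Their summed level was 5728 to 6374 CPM in the WT and 3192 to 3725 CPM in the cKO cultures. The remaining gene, C1ql1, also lies inside another gene and had 0 counts. For all genes tested the shares were 19.7% higher, 19.8% lower and 50.4% without overlap.

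Large falls were seen in genes of mature oligodendrocytes and myelin. Mobp, a protein of compact myelin, had 31.2, 31.0 and 35.2 CPM in the WT and 3.92, 8.21 and 6.07 CPM in the cKO cultures (log2 fold change -2.43, SE 0.19, edgeR adjusted p = 4.64e-07). Ermn, which encodes the cytoskeletal protein ermin, fell by 2.25 on the log2 scale (edgeR adjusted p = 0.0013) from 1.11 to 1.80 CPM to 0.145 to 0.441 CPM.

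Mbp, myelin basic protein, chosen after its values were seen, had 602, 764 and 1074 CPM in the WT and 202, 338 and 325 CPM in the cKO cultures (log2 fold change -1.50, edgeR adjusted p = 0.00939). Grouped by role, also after the values were seen, all 13 genes of myelin and mature oligodendrocytes were lower without overlap, with a median log2 fold change of -1.41. Their summed level was 3249, 3279 and 3697 CPM in the WT and 1261, 1536 and 1598 CPM in the cKO cultures. Beside this, 19.8% of all genes tested were called lower and 50.4% had no overlap between the genotypes.

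The precursor genes of that list were mixed, beside 19.7% higher and 19.8% lower over all genes tested. Of 6, 5 were tested, of which 2 were higher and 1 lower, and their summed level was 679, 687 and 600.2 CPM in the WT and 736, 701 and 686 CPM in the cKO cultures, which overlap. Sox8, a relative of Sox10 and the most abundant of them, named after its values were seen, had 383, 423 and 363 CPM in the WT and 251, 273 and 268 CPM in the cKO cultures, and so was lower without overlap (log2 fold change -0.56, SE 0.08, edgeR adjusted p = 0.000139). Lhfpl3, a tetraspan protein gene used as a marker of OPCs, had 199, 165 and 144 CPM in the WT and 363, 312 and 306 CPM in the cKO cultures. The cKO cultures were all above the WT cultures, and the log2 fold change was 0.95 (SE 0.11, edgeR adjusted p = 1.79e-05), above that of each of the 7 tested members. Cacng4, an auxiliary subunit of AMPA receptors, rose by 0.28 on the log2 scale (edgeR adjusted p = 0.00942).

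**Figure D2:**
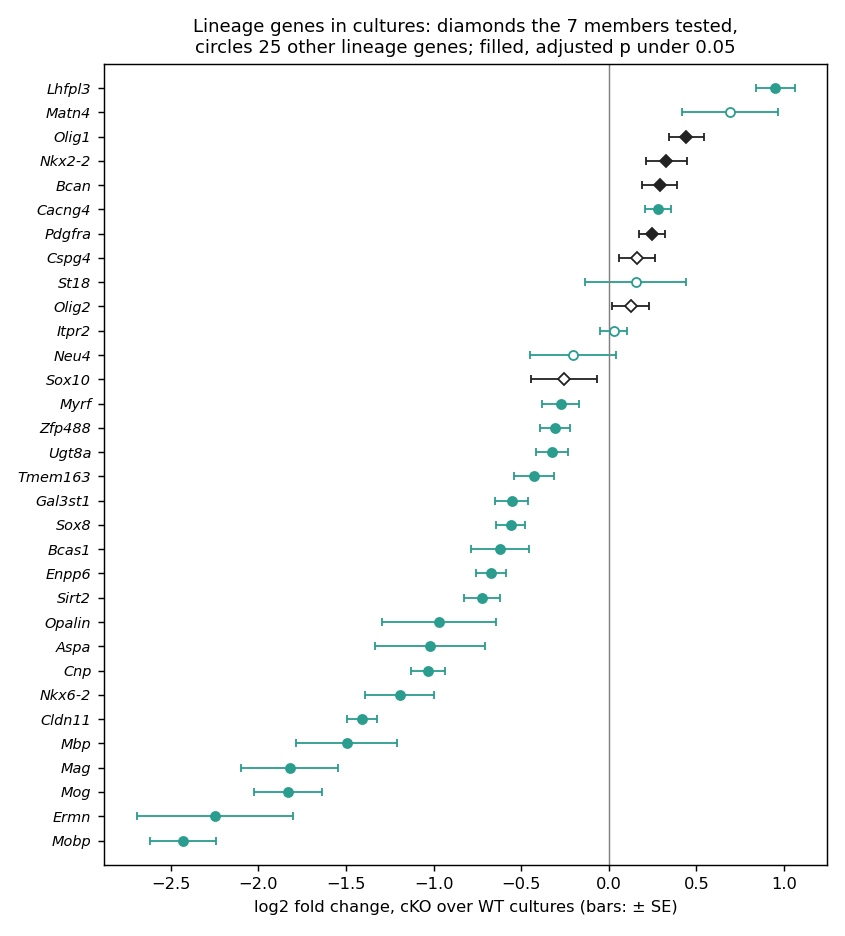
Log2 fold change of cKO over WT cultures with its SE for the 7 tested members and 25 other lineage genes, where filled points passed the edgeR test and open points did not. The members lie between -0.25 and 0.44, and the other lineage genes drawn reach down to -2.43 (Mobp).

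Genes known to act on the lineage moved in several ways in the same cultures, where 19.7% of all genes tested were called higher and 19.8% lower. PDGF signalling feeds Pdgfra: of its 6 other genes, 5 were tested, 1 was higher and 2 were lower, with a median of -0.44. Pdgfa, the ligand of Pdgfra, had 69.8, 79.3 and 75.9 CPM in the WT and 42.4, 42.6 and 45.4 CPM in the cKO cultures, so that the ligand was lower (log2 fold change -0.79, edgeR adjusted p = 1.17e-05) where the receptor was higher. Pdgfrb, the second PDGF receptor, fell by 0.73 on the log2 scale (edgeR adjusted p = 0.000681), and the ligand Pdgfc rose by 0.68 (0.000653). The ligand Pdgfd (-0.44, edgeR adjusted p = 0.259) and the receptor-like Pdgfrl (-0.30, edgeR adjusted p = 0.336) did not pass, and Pdgfb was not tested.

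Of 13 genes of Sonic hedgehog signalling, 10 were tested, 2 were higher and 0 lower, with a median log2 fold change of 0.13. This share is close to the 19.7% higher over all genes tested. The 2 were Ptch1, the receptor and a target of the pathway, with 278, 267 and 276 CPM in the WT and 402, 379 and 350 CPM in the cKO cultures (log2 fold change 0.46, edgeR adjusted p = 0.000448), and Cdon, a co-receptor (0.68, edgeR adjusted p = 0.00176). Of 9 ventral factors upstream of the lineage, 6 were tested, 0 were higher and 3 lower (19.8% lower over all genes tested), with a median of -1.02. Those lower included Dlx2, a factor of GE progenitors, with 1.44, 1.23 and 3.70 CPM in the WT and 0.196, 0.349 and 0.289 CPM in the cKO cultures (log2 fold change -2.93, edgeR adjusted p = 0.000549), and Nkx6-2, a homeobox factor also of oligodendrocytes (-1.19, edgeR adjusted p = 0.000352).

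The counts of this paragraph stand beside 19.7% called higher and 19.8% called lower over all genes tested. Of 12 inhibitors of the lineage, all tested, 6 were higher and 5 lower, with a median of 0.17. The largest rises were of Hes1, a repressor downstream of Notch (2.84, edgeR adjusted p = 2.54e-09), of the precursor factor Sox6 (0.76) and of the Notch ligand Jag1 (0.62), and the largest falls were of Id4 (-1.07), Id2 (-0.91) and Bmp4 (-0.79), which hold back differentiation. Hes1 had 4.41, 5.24 and 5.09 CPM in the WT and 31.3, 36.6 and 37.3 CPM in the cKO cultures. In the matrix that holds brevican, 12 of 13 genes were tested, 6 were higher and 2 lower, with a median of 0.39. There the link protein genes Hapln3 (0.99) and Hapln4 (0.75) and the protease gene Adamts5 (0.87) had the largest rises, while Adamts4, whose enzyme cleaves brevican and which oligodendrocytes make, fell by 1.75 on the log2 scale, and Cspg5 fell by 0.57. Of 11 glial fate factors, all tested, 3 were higher (Fgfr1 and Tnfrsf19, 0.25 each, and Fgfr3, 0.23) and 5 lower, the largest falls being of Zbtb20 (-0.56), Nfix (-0.50) and Sox9 (-0.34), with a median of 0.09. Without cKO 2 or cKO 3, 0 of these factors were higher and 3 lower in the edgeR test. The astrocyte marker list, given above by its sum, had 9 of 11 tested genes lower and 1 higher, and all 6 cell cycle markers were higher.

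In the embryonic cortex the members were sparse. The WT library held 8214 kept cells and the cKO library 9559, with median depths of 11705 and 11016 UMIs, and 22 barcodes occurred in both libraries. Over all cells, Bcan gave 573 UMIs in 415 cells of the WT and 418 in 308 cells of the cKO embryo, Cspg4 225 in 64 and 168 in 55 cells, Olig2 152 in 76 and 151 in 89 cells, Pdgfra 90 in 31 and 207 in 73 cells, and Olig1 73 in 14 and 95 in 19 cells. Sox10 (7 UMIs in the WT and 14 in the cKO embryo), Nkx2-2 (4 and 3) and Gpr17 (1 and 3) were too rare to compare. Pdgfra was the member with the larger value in the cKO embryo, a log2 ratio of cKO over WT of 1.05 (95% interval 0.69 to 1.42), and Bcan (-0.61, -0.79 to -0.42) and Cspg4 (-0.57, -0.87 to -0.28) were those with the smaller. For Olig1 (0.23, -0.23 to 0.69) and Olig2 (-0.16, -0.50 to 0.17) the intervals of the ratio held 0.

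Cell classes were named from markers, and no cluster was led by the lineage: the members and the other lineage genes were kept out of the genes used for clustering. Apical progenitor (AP)-like cells, the radial glia that line the ventricle, held most of the Bcan UMIs. Cells like those of the GE, the ventral source of interneurons, and AP-like cells held most of Olig2 and Olig1, above all the cycling ones. A mixed cluster of fibroblast- and pericyte-like cells, which also took in microglia-like cells, held most of Pdgfra, and it and the endothelial-like cluster held most of Cspg4.

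**Figure D3:**
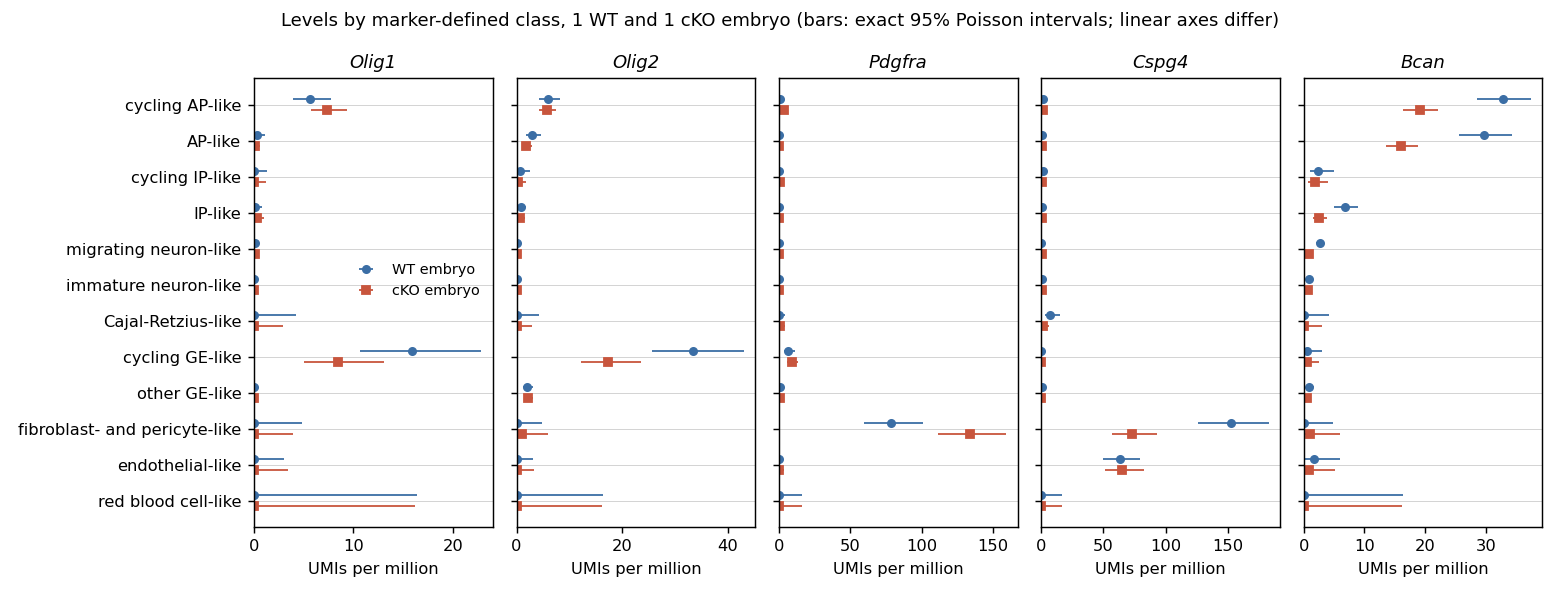
Level of Olig1, Olig2, Pdgfra, Cspg4 and Bcan in 12 marker-defined classes of the WT and cKO embryo, as CPM of the UMIs of the class on linear axes that differ between panels, with exact 95% Poisson intervals of the count. Bcan is highest in the AP-like classes, Olig1 and Olig2 in the cycling GE-like class, Pdgfra in the fibroblast- and pericyte-like cluster, and Cspg4 there and in the endothelial-like cluster. The Olig1 level of the cycling GE-like class comes from 3 cells of each embryo. In the cKO embryo its interval overlaps that of the cycling AP-like class.

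Bcan had a lower level in the AP-like cells of the cKO embryo. In all AP-like cells (962 WT and 1318 cKO cells) it had 405 UMIs in the WT and 334 in the cKO embryo, or 31.3 (28.4 to 34.5) and 17.5 (15.7 to 19.5) CPM, a log2 ratio of -0.84 (-1.05 to -0.62). The ratio was alike in the cycling (-0.78, -1.07 to -0.49) and the other AP-like cells (-0.89, -1.21 to -0.58). At least 1 UMI was found in 27.3% (exact binomial interval 24.5 to 30.3) of the WT and 17.2% (15.2 to 19.4) of the cKO AP-like cells, at median depths of 12452.5 and 12660 UMIs. When each cell was thinned to 5000 UMIs, which left 781 and 1142 cells, the shares were 12.9% and 7.97%. GE-like cells, which do not come from cortical radial glia, held a Bcan UMI in 0.672% and 0.365% of cells, at median depths of 8138 and 7740 UMIs.

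Outside AP-like cells, Bcan was lower in both embryos. It had 2.40 (0.964 to 4.94) CPM in the WT and 1.87 (0.685 to 4.06) CPM in the cKO cycling intermediate progenitor-like cells, whose intervals overlap. It had 6.80 CPM in the WT and 2.49 CPM in the cKO for the other intermediate progenitor-like cells (log2 ratio -1.45, -2.29 to -0.66), 2.58 and 0.872 CPM in migrating neuron-like cells (-1.57, -2.32 to -0.86) and 0.920 and 0.689 CPM in immature neuron-like cells, where the interval of the ratio held 0 (-1.24 to 0.39). The GE-like cells had 0.745 (0.32 to 1.47) and 0.490 (0.197 to 1.01) CPM. Intervals of the immature neuron-like cells of both embryos and of the cKO migrating neuron-like cells overlapped those of the GE-like cells. Whether the GE-like values are background was not tested. The migrating neuron-like class was made up differently in the embryos: its cluster led by Tafa1 had 163 WT and 541 cKO cells with 0 and 5 Bcan UMIs, while its other clusters, of 1066 and 1014 and of 802 and 739 cells, gave log2 ratios of -0.66 (-2.12 to 0.69) and -2.11 (-3.26 to -1.12). With 1 embryo of each genotype, a difference between genotypes and a difference between these embryos or libraries cannot be told apart.

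Olig2 was highest in the cycling GE-like cells (110 WT and 133 cKO cells). It had 33.5 (25.6 to 43.0) CPM there in the WT and 17.2 (12.3 to 23.6) CPM in the cKO embryo, from 61 and 39 UMIs, a log2 ratio of -0.96 (-1.58 to -0.35). The richest cell held 17 of these UMIs in the WT and 11 in the cKO embryo, so an interval that treats UMIs as independent is too narrow. A UMI was found in 25.5% (17.6 to 34.6) of these WT and 14.3% (8.83 to 21.4) of these cKO cells. These exact binomial intervals overlap. After thinning to 5000 UMIs the shares were 10.2% and 3.88%. Emx1-Cre does not act in cells of ventral origin, and this difference was not tested. The other GE-like cells had 2.02 and 2.16 CPM. In all AP-like cells Olig2 had 4.56 (3.47 to 5.89) CPM in the WT and 3.73 (2.91 to 4.70) CPM in the cKO embryo, with an interval of the log2 ratio from -0.81 to 0.23, and with every cell scaled to the same total the ratio was 0.25 in place of -0.29. Immature neuron-like cells, which should lack it, held an Olig2 UMI in 0.0435% and 0.128% of cells.

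Olig1 sat in few cells. In cycling GE-like cells it had 15.9 (10.7 to 22.9) CPM in the WT and 8.40 (5.06 to 13.1) CPM in the cKO embryo, but from 3 cells in each, of which the richest held 26 and 16 UMIs. In cycling AP-like cells it had 5.60 (3.94 to 7.71) and 7.34 (5.70 to 9.31) CPM from 4 and 8 cells. Intervals that treat UMIs as independent are too narrow where a handful of cells holds them, so neither pair of Olig1 levels can be ranked by genotype.

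Pdgfra was led by fibroblast-like cells. The mixed cluster of fibroblast- and pericyte-like cells held 66.7% of its UMIs in the WT and 60.9% in the cKO embryo, at 78.3 and 134 CPM, a log2 ratio of 0.77 (0.32 to 1.24). At a finer clustering it split into 13 WT and 26 cKO fibroblast-like, 103 and 82 pericyte-like and 14 and 33 microglia-like cells, the last with 0 Pdgfra and 0 Cspg4 UMIs. In the fibroblast-like cells Pdgfra had 285 (216 to 368) CPM in the WT and 279 (231 to 334) CPM in the cKO embryo, a log2 ratio of -0.03 (-0.49 to 0.45), while pericyte-like cells held 2 and 6 UMIs. The part of this make-up in the higher Pdgfra level of the mixed cluster was not tested further. In AP-like cells Pdgfra gave 5 UMIs, all in 1 cell of the WT embryo, and 35 UMIs in 8 cells of the cKO embryo, 23 of them in 1 cell.

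Cspg4 was led by pericyte-like cells. In the mixed cluster it had 153 (126 to 183) CPM in the WT and 73.3 (57.1 to 92.8) CPM in the cKO embryo. At the finer clustering, pericyte-like cells had 222 (183 to 266) and 156 (121 to 199) CPM, a log2 ratio of -0.51 (-0.96 to -0.06), and fibroblast-like cells held 0 and 3 UMIs. Endothelial-like cells had 63.3 and 65.3 CPM, a log2 ratio of 0.04 (-0.44 to 0.53), and that cluster also had raised pericyte markers. AP-like cells held 10 and 15 Cspg4 UMIs. In these embryos Cspg4 and Pdgfra UMIs came mostly from vessel and meningeal classes.

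A cell of the lineage would hold several members at once, and few cells did. In the WT embryo 561 cells held UMIs of 1 member, 15 of 2, 1 of 3 and 3 of 4 or more. In the cKO embryo 482 cells held 1 member, 20 held 2, 4 held 3 and 4 held 4 or more. Olig1 and Olig2 were found together in 6 WT and 12 cKO cells, where the product of their shares within each class gives 0.94 and 0.76 cells, and in 5 and 10 cells without those called doublets. Olig2 and Bcan, by contrast, shared 9 and 7 cells, close to the 8.23 and 7.11 cells that the product gives. Pdgfra and Cspg4, which mark OPCs jointly, shared 1 cell in the WT and 5 in the cKO embryo, against products of 3.03 and 4.44. These products come mostly from the mixed cluster of fibroblast- and pericyte-like cells and so do not bear on OPCs. There, 14 WT and 32 cKO cells held Pdgfra, and 28 and 19 held Cspg4. The shared WT cell was a cycling AP-like cell, as were shared cKO cells with 23, 3 and 1 Pdgfra UMIs. The product takes the cells of a class as equally deep. The cycling AP-like class, however, joined clusters with median depths of 17754 and 2631 UMIs in the WT embryo. The part of depth in these counts was not tested.

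The 7 cells with 4 or more members, 3 of the WT and 4 of the cKO embryo, held 63.0% and 61.1% of all Olig1 UMIs of their embryos but 16.4% and 15.2% of the Olig2 UMIs and 0.7% and 1.4% of the Bcan UMIs. These cells were chosen by their member UMIs, and all of them held Olig1 and Olig2, so the choice itself raises such shares. The cell with all 8 members was a cKO cell of 22177 UMIs with 34 UMIs of Olig1, 9 of Olig2, 5 of Sox10, 23 of Pdgfra, 3 of Cspg4, 2 of Nkx2-2, 2 of Gpr17 and 5 of Bcan, besides 36 of Lhfpl3 and 0 of the cortical marker Emx1. A WT cell of 39062 UMIs was like it, with 7 members (16 UMIs of Olig1, 6 of Olig2, 5 of Pdgfra, 5 of Cspg4, 1 of Nkx2-2, 1 of Gpr17 and 3 of Bcan), 104 UMIs of Lhfpl3 and 0 of Emx1. Both cells were called doublets by Scrublet, with scores of 0.290 and 0.215.

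A second kind held the GE marker Dlx2. A WT cell of 31012 UMIs had 26 UMIs of Olig1, 17 of Olig2, 2 of Sox10, 8 of Pdgfra and 1 of Bcan with 17 of Dlx2 and 0 of Lhfpl3, and a cKO cell of 20839 UMIs had 16, 11, 2, 8 and 1 UMIs of the same members with 22 of Dlx2 and 0 of Lhfpl3. Neither was called a doublet. The other 3 cells were shallow, with 1677 to 4381 UMIs, and lay in the shallower of the cycling AP-like clusters. With 3 and 4 such cells, their number could not be compared between the embryos. Without the 7 cells, the log2 ratio of Olig1 in cycling GE-like cells went from -0.92 to -0.32, and that in all AP-like cells from 0.26 to -0.05. The cells left out held 26 of 29 WT and 16 of 19 cKO Olig1 UMIs of the cycling GE-like class. Its ratio of -0.32 therefore rests on very few UMIs.

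**Figure D4:**
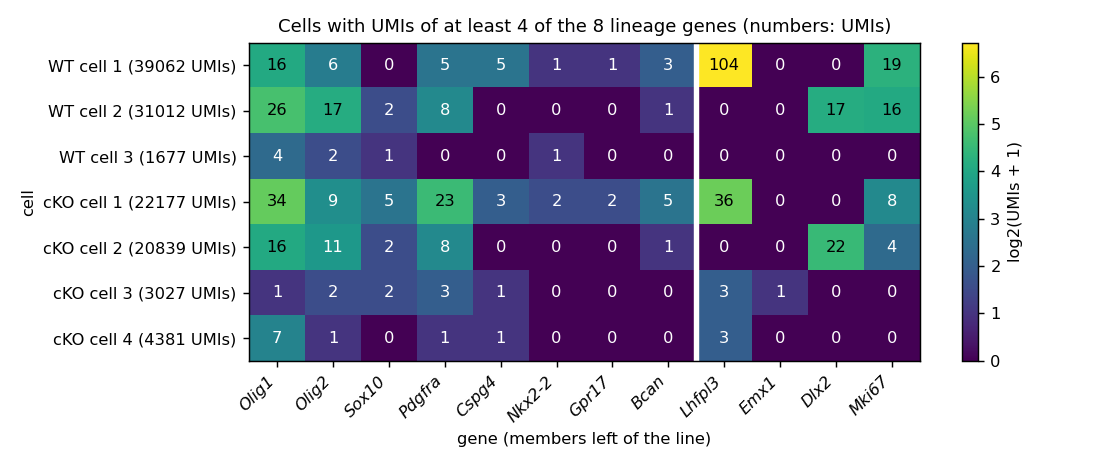
UMIs of each of the 8 members and, right of the line, of Lhfpl3, Emx1, Dlx2 and the cell cycle gene Mki67 (columns) in each of the 7 cells that held 4 or more of them (rows), with the number printed in each square and the shade on a log scale. A WT and a cKO cell with high Olig1 hold Gpr17 and Cspg4 as well, and another of each embryo holds Olig1, Olig2 and Pdgfra without them.

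The genes most like each member over 24 points, 12 classes in each of 2 libraries, were named by the Pearson correlation of log2(CPM + 1) over 14289 genes, a description since the points share libraries, depth and composition. For Olig1 these were Olig2 (r = 0.899) and the histone genes Hist1h2bp (0.823) and Hist1h4h (0.780). For Olig2 they were Gsx2, a patterning factor of the GE (0.925), Pebp4 (0.889) and Ccnd2, a cyclin of the cell cycle (0.876). Cspg4 was most like Mylk, a kinase of contractile cells (0.981), Apod (0.979) and Pdlim2 (0.976). Bcan was most like Gm13134 (0.935), Hhipl1 (0.930) and Aldoc, a marker of radial glia and astrocytes (0.929). For Pdgfra they were the macrophage genes Adgre1 (0.909), Trem2 (0.904) and Fcgr3 (0.903), but 14 WT and 33 cKO microglia-like cells sat in the mixed cluster that leads Pdgfra, and these held 0 Pdgfra UMIs, so those values describe the mixed cluster. The lists for Sox10 (Hist1h2bp, 4930557F10Rik and Hist1h4h, 0.834 to 0.796), Nkx2-2 (Il12rb2, Gm14662 and 2810459M11Rik, 0.665 to 0.642) and Gpr17 (Nog, 2810459M11Rik and Il12rb2, 0.630 to 0.624) rest on 21, 7 and 4 UMIs.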

How the data were processed

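RNA-seq of 6 NPC cultures and 10x scRNA-seq of 2 embryos were used; 3 LACE-seq libraries of the series were not analysed here. For the cultures, the authors deposited raw counts per gene after HISAT2 alignment to mm10, per the submitters' processing notes, with the counting program, annotation and strand setting not given in the sources used here. For the embryos, the authors deposited UMI counts from Cell Ranger on its filtered barcodes. No column of sample values went unused (0).

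Counts were compared with edgeR 4.0.16 in R 4.3.3: filterByExpr left 14432 of 48440 genes, TMM scaling was used, and a robust quasi-likelihood test was adjusted by Benjamini-Hochberg over all genes at 0.05. DESeq2 1.42.0, other scalings and filters, a replicate block, sex as a covariate and leaving out each culture were alternatives. Of the genes of the table, 40517 (83.6%) match GENCODE M21 by name and position, whose exons gave lengths.

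Cells with 200 or more genes and at most 10% mitochondrial UMIs were clustered in Seurat 5.3.0 (1987 variable genes, 30 components, 20 neighbours, resolution 0.8, 0.4 and 1.2 as alternatives). Clusters were named from marker lists, and the limits of naming were set after the clusters were seen. Of 25 clusters, those that matched no class, 723 WT and 828 cKO cells, stayed unnamed, and the microglia-like cells (17 and 16, with 14 and 33 more in the fibroblast- and pericyte-like cluster) were too few for levels. Scrublet (scanpy 1.11.5) called 298 (3.63%) WT and 444 (4.64%) cKO cells doublets, which were kept except in an alternative. UMIs were summed per class and divided by its total to give CPM, with exact 95% Poisson, conditional and binomial intervals (scipy 1.17.1), which cover counting error only.

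The members and the gene lists were chosen with earlier results of these data known. Named were all 8 members, up to 3 called genes with the largest rises and 3 with the largest falls from each list, all genes of PDGF signalling, and for each member the 3 genes most like it by class. Some genes that this rule names are not reported here.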

Additional observations from a re-analysis of the deposited data

Results flagged for a closer look

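Bcan had opposite directions in the cultures and in the embryos: a log2 fold change of 0.29 in the cKO cultures, and a log2 ratio of -0.61 over all cells and -0.84 over AP-like cells in the cKO embryo. The difference between the experiments was not tested, since there was 1 embryo of each genotype.

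Another 6 genes of the lineage list were lower in the cKO cultures and had larger values in the cKO embryo over all cells, a difference that was not tested and genes that were chosen for it after their values were seen. Sox8 was at -0.56 in the cultures and 0.36 in the embryo, Ugt8a at -0.32 and 0.28, and Tmem163 at -0.42 and 0.33. Ermn was at -2.25 and 0.49. Cldn11, a tight junction gene of oligodendrocytes and of the meninges, was at -1.41 and 2.28, where 25 WT and 152 cKO UMIs lay in the fibroblast- and pericyte-like cluster. Aspa was at -1.02 and 2.43, where that cluster held 1 and 15 UMIs and the microglia-like cells of their own cluster 3 and 14.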

How the results depend on the processing

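Leaving out a culture in turn, the number of members called higher ran from 1 to 3 (4 with all cultures, 3 without WT 1, 2 without WT 2, WT 3 or cKO 1, and 1 without cKO 2 or cKO 3). Over all genes tested, those called higher were 2843 with all cultures, 3070 without WT 1 and 2068 to 2595 without any other culture. Leaving out cultures also gave 1 to 3 other lineage genes higher (1 without cKO 1), 0 to 1 genes of Sonic hedgehog signalling lower (1 without WT 1), 3 to 5 inhibitors lower (3 without cKO 2 or cKO 3), and 0 to 3 glial fate factors higher (1 without cKO 1, 0 without cKO 2 or cKO 3) and 3 to 5 lower (3 without cKO 2 or cKO 3). With the replicate block and with sex as a covariate, 1 member was called lower, Sox10 (-0.25, adjusted p = 0.0145, and -0.42). Under the block Cspg4 also passed (0.17, adjusted p = 0.0468). The labels do not say whether same-numbered cultures are pairs. The deviations of same-numbered cultures correlated at 0.264, -0.047 and 0.116, and those of differently numbered ones at -0.344 to 0.286, which does not settle it. Under the block 3189 genes were called higher and 3216 lower, against 2843 and 2858 without it. With every embryonic cell scaled to the same total, the log2 ratio of Olig2 in AP-like cells was 0.25, against -0.29 as reported, and over all cells that of Olig2 was 0.25 (-0.16 as reported), of Olig1 0.79 (0.23) and of Cspg4 -1.01 (-0.57), a setting in which single shallow cells weigh more. The cause of the other shifts was not tested. Of all values recomputed, 448 were rated as kept, 24 moved more, 3 gained and 13 lost significance, and 0 called values reversed. Kept means the same direction and side of the threshold, or a move within the spread. For counts of genes or cells it means within a set factor. By this, 21 lower lineage genes becoming 16 under the stricter filter counted as kept. Leaving out the cells with 4 or more members was chosen after seeing the data. Counting error limits every tissue value, most of all for Sox10, Nkx2-2 and Gpr17.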

Other observations

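Several genes of the lineage list, named after their values were seen, were found in the embryos, where few cells held several members. Mbp gave 1295 UMIs in the WT and 1382 in the cKO embryo, Cnp 502 and 556 and Mog 240 and 282, against 16 and 17 for Mag and 5 and 4 for Mobp. Lhfpl3, the precursor marker that rose in the cKO cultures, also had more UMIs in the cKO embryo, 2307 in the WT and 5111 in the cKO embryo. Cells with a UMI of any member held 199 and 225 of them. GE-like cells other than the cycling ones held 1622 and 1980 UMIs, migrating neuron-like cells 179 and 1705, and immature neuron-like cells 210 and 940. Among the migrating neuron-like cells, the cluster led by Tafa1, of 163 WT and 541 cKO cells, held 50 and 1411 of these UMIs (23.7 and 226 CPM). With 1 embryo of each genotype this difference has no test.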
